A study of Homo sapiens with 6 samples.

Results

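The CTCF binding sites described here are the strong ones that touch acetylated chromatin in human neurons. Each is a CTCF peak with a signal value of at least 200 that shares at least 1 bp with a peak of the H3K27ac list. They were selected on these 2 values and number 2551 of the 43430 CTCF peaks on chromosomes 1 to 22 and X, counting each interval once. The cells were neurons grown out of KOLF2.1J neural progenitors by a published BrainPhys protocol. KOLF2.1J is a human induced pluripotent stem cell line, all libraries come from this 1 line, and no genetic or drug treatment is named. Sequencing of DNA recovered with an antibody (ChIP-seq) gave 2 CTCF libraries, 2 H3K27ac libraries and 2 input libraries without antibody, and nothing in the labels says whether the 2 libraries of a group came from separate cultures. The values used were 1 peak list per antibody that covers both libraries, so there was no spread between replicates and the read depth was unknown. Positions are 1-based in hg38. The wider study looked for regulatory elements of MAPT, the gene of the microtubule-associated protein tau.

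CTCF is a zinc-finger protein that binds a long DNA motif whose sequence has a direction. Together with cohesin, the ring complex that extrudes chromatin loops, it forms loop anchors, mostly where motifs face each other, and it also binds next to promoters. H3K27ac, the acetylation of histone H3 at lysine 27, lies on the nucleosomes of active promoters and enhancers, and a bound factor such as CTCF commonly sits in a gap between nucleosomes.

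The sites at gene starts show how these 3 features meet in the DNA itself. The following 250 bases end immediately before the transcription start of LRRC59 (chr17:50397524-50397773, minus strand), TMEM170A (chr16:75464738-75464987, minus strand) and NOP10 (chr15:34343137-34343386, minus strand), read in the direction of the gene, from RefSeq on GRCh38.p14. The first 2 hold the strongest sites whose CTCF core points the way the gene is transcribed, and NOP10 the strongest whose core points the opposite way, among 262 sites with an unambiguous core upstream of the start. Capitals mark the 14 bases that best match the CTCF core consensus on either strand.
LRRC59: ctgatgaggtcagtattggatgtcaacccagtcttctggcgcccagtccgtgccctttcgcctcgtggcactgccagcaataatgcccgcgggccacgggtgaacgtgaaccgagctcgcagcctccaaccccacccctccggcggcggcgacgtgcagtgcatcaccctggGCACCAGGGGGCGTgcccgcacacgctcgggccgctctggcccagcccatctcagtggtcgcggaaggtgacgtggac
TMEM170A: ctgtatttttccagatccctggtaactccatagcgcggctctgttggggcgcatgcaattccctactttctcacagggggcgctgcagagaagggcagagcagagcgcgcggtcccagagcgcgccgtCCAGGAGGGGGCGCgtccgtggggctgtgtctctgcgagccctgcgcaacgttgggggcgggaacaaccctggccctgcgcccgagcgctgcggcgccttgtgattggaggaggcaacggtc
NOP10: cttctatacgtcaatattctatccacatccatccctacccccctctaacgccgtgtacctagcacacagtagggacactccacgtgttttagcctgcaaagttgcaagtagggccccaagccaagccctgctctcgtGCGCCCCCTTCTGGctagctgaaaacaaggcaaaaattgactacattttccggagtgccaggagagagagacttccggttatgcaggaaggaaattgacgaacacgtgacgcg

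LRRC59 encodes a ribosome-binding protein of the endoplasmic reticulum, and its core, with 12 of 14 consensus positions, ends 64 bases before the start. TMEM170A, a membrane protein gene, has a core with 13 matching positions that ends 108 bases before its start. In NOP10, a component of the particles that pseudouridylate RNA, the core also matches at 13 positions and ends 99 bases before the start, with the consensus on the other strand. The CTCF signal values are 462.6, 449.5 and 364.3, and the strongest H3K27ac peaks that these sites touch have fold enrichments of 11.1, 45.9 and 7.49. In all 3 the CTCF summit lies outside every H3K27ac peak, although the intervals overlap.

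The next strongest sites of the same kind are shown by their core with up to 15 bases on each side. The cores of ACBD4, an acyl-CoA-binding protein (chr17:45135442-45135485, plus strand), SF3A3, a splicing factor subunit (chr1:37990143-37990186, minus strand), NOL7, a nucleolar protein (chr6:13615258-13615301, plus strand), DHX8, a spliceosomal helicase (chr17:43483790-43483833, plus strand), DPP8, a dipeptidyl peptidase (chr15:65517763-65517806, minus strand), and PSMD6, a proteasome subunit (chr3:64023534-64023577, minus strand), point with the gene. STAG1 (chr3:136752390-136752433, minus strand), a subunit of cohesin, and PDS5A (chr4:39977993-39978036, minus strand), a regulator of cohesin, are shown because they belong to the machinery that works with CTCF, and theirs also point with the gene.
ACBD4: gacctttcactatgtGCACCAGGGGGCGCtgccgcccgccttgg
SF3A3: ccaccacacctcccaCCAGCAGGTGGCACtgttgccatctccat
NOL7: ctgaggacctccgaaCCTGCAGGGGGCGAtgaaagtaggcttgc
DHX8: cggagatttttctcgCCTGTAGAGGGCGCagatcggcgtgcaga
DPP8: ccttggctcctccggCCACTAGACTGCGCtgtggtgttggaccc
PSMD6: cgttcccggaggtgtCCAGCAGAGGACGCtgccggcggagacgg
STAG1: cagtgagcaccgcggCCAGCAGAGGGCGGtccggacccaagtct
PDS5A: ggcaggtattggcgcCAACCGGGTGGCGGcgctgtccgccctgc

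The strongest after NOP10 whose core points against the gene are those of NAE1, a subunit of the enzyme that activates NEDD8 (chr16:66830998-66831041, minus strand), FRS3, an adaptor of fibroblast growth factor receptors (chr6:41780037-41780080, minus strand), and TLCD1, a membrane protein gene (chr17:28726979-28727022, minus strand). In the direction of the gene they show the reverse complement of the consensus.
NAE1: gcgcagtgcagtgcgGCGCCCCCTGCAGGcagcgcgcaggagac
FRS3: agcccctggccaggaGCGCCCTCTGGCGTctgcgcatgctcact
TLCD1: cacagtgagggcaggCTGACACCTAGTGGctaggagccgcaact

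SF3A3 and STAG1 match all 14 positions, and the remaining cores shown match 12 or 13. Their CTCF signal values run from 276.7 at PDS5A to 421.9 at ACBD4. The H3K27ac fold enrichments beside them range from 4.20 at FRS3 to 38.4 at STAG1, so cores of similar quality sit beside very different levels of acetylation. The CTCF summit lies 1.5 bp from the centre of the core at FRS3, 3.5 bp at STAG1 and 41.5 bp at DHX8.

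Across all 2551 sites, the CTCF signal value had a median of 265 (quartiles 231.2 and 305.5), on the authors' scale. Because the signal value chose the sites, it is given as a description only. The highest value, 492.4, belonged to a site between SYT6, a synaptotagmin gene, and TRIM33, a ubiquitin ligase gene. ATP5MC2, which encodes a subunit of the mitochondrial ATP synthase, had a site of 474.5, and MED15, a Mediator subunit, one of 473.3. LRRC59, TMEM170A, ZNF385A (437.3), VPS36 (433.6), the interval between CRYBB2 and GRK3 (432.3), ACBD4 and the interval between SLC4A3 and EPHA4 (416.6) completed the 10 highest. Of these 10, the sites of ATP5MC2, LRRC59, TMEM170A, VPS36 and ACBD4 lay within 1 kb of a protein-coding start. Their strongest H3K27ac peaks had fold enrichments from 2.83 at MED15 to 45.9 at TMEM170A, and VPS36, a gene of endosomal sorting, was the single one of the 10 with its CTCF summit inside an H3K27ac peak.

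At the lower limit, the sites just inside were those near PLXNA2, a plexin receptor of axon guidance (signal value 200.05), at PCNA and CDS2 (200.07) and between STXBP6 and NOVA1 (200.10). The H3K27ac-overlapping CTCF peaks just outside had signal values of 199.96, 199.95 and 199.94 on chromosomes 4, 16 and 6, and fold enrichments of 14.8, 2.71 and 22.1. Those inside had 6.71, 21.3 and 4.32, so the limit divides a continuous range.

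H3K27ac overlapped 28.7% of the 8892 strong CTCF peaks (95% Wilson interval 27.8 to 29.6%), close to the 27.9% of all CTCF peaks. Both percentages are the rule itself and nothing is read from them. The intervals throughout cover counting error only, and no p-value is given because peaks of 1 list are not replicates. The share that qualified was 24.7% (997 sites) at signal values of 200 to 250, 29.6% (848) at 250 to 300, 34.05% (520) at 300 to 350 and 39.9% (186) above 350. These shares come from the values of the rule and are a description. The median peak width was 476, 492, 502 and 519 bp in the same order. By chromosome the share ran from 18.1% on chromosome 18 to 35.75% on chromosome 16.

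The strongest H3K27ac peak overlapped by each site had a median fold enrichment of 8.35 (quartiles 4.60 and 17.4), with a range from 1.80 to 82.5. The median was 4.74 over all 78639 H3K27ac peaks and 11.3 for the peaks overlapped by the 9558 weaker CTCF peaks with H3K27ac. The highest value lay between REXO1, an exonuclease gene, and KLF16, a transcription factor gene, 356 bp upstream of the REXO1 start, where the CTCF signal value was 226.2. Next came the interval between FAM156B and FAM156A (fold enrichment 75.9) and DYNC1LI2, a dynein chain gene (75.7). IPO13, a nuclear import receptor gene, and the interval between TAOK3 and SUDS3, a gene of a histone deacetylase complex, followed with 73.3 and 72.15. The CTCF signal values of these 5 sites were 204.5 to 258.6. Over all sites the median fold enrichment was 8.14, 8.03, 8.67 and 11.3 at CTCF signal values of 200 to 250, 250 to 300, 300 to 350 and above 350, so these 5 do not stand for the whole.

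**Figure D1:**
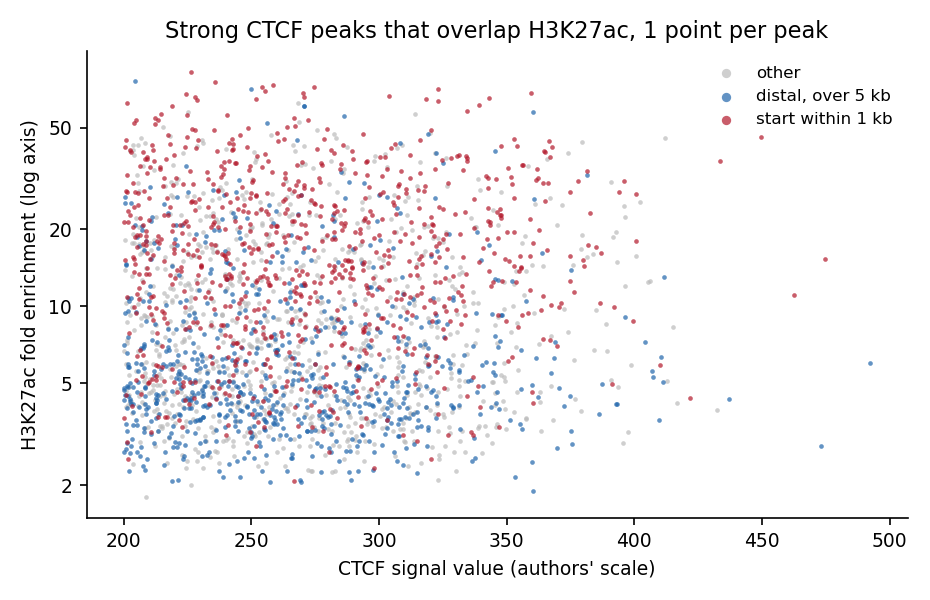
Each point is 1 of the 2551 strong CTCF peaks that overlap H3K27ac, with the authors' CTCF signal value on the x axis and the fold enrichment of its strongest overlapped H3K27ac peak on the y axis (log axis). Sites within 1 kb of a protein-coding start (red) lie mostly above distal sites (blue), with medians of 15.5 and 5.10, and both kinds occur over the whole range of CTCF signal.

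At most of the strong sites the CTCF summit lay outside acetylated intervals. The CTCF summit lay inside an H3K27ac peak at 838 of the 2551 sites, or 32.85% (95% Wilson interval 31.1 to 34.7%), against 71.7% of the weaker CTCF peaks with H3K27ac. The difference was -38.9 percentage points (95% interval -40.9 to -36.8), and the share was lower at the strong sites on 23 of 23 chromosomes. Peak width differs between these groups: 51.8% of the weaker peaks have a recurrent width of 800 bp and 0 of the strong sites do, which have a median width of 491 bp. Among strong sites between the quartiles of their width, 30.9% had the summit inside H3K27ac, against 62.5% of the 261 weaker peaks of the same width range. The rule required the overlap, so these shares describe where within the overlap the summit falls. The widest overlapped H3K27ac peak was also narrower at the strong sites, with a median of 618 bp against 992 bp at the weaker peaks. The shares were not matched for H3K27ac peak width, and its part in the difference was not tested.

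A single H3K27ac peak was overlapped at 1884 sites, 2 at 665 sites, and 3 at the sites of PPRC1, a transcriptional coactivator gene, and EFHD1, a calcium-binding protein gene. At the 665 sites the gap between the flanking H3K27ac peaks had a median of 164 bp (quartiles 123 and 223), and the CTCF summit fell in that gap in 81.65% of cases. Of the sites with 1 H3K27ac peak, 1167 had their summit outside it, at a median of 102 bp from the nearest edge (quartiles 67 and 144.5). A CTCF interval that touches 2 H3K27ac peaks spans the whole gap between them, and the edge distance cannot exceed the interval. The gap, the share in it and the edge distance therefore follow in part from the rule. They were not computed for the weaker peaks. The median distance between the CTCF summit and the strongest H3K27ac summit was 240 bp over all sites. Sites with at least 2 H3K27ac peaks made up 26.15%, against 19.85% of the weaker CTCF peaks with H3K27ac. In the same width range these shares were 26.9% and 24.1%, and their intervals (24.5 to 29.3% and 19.4 to 29.7%) overlapped.

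**Figure D2:**
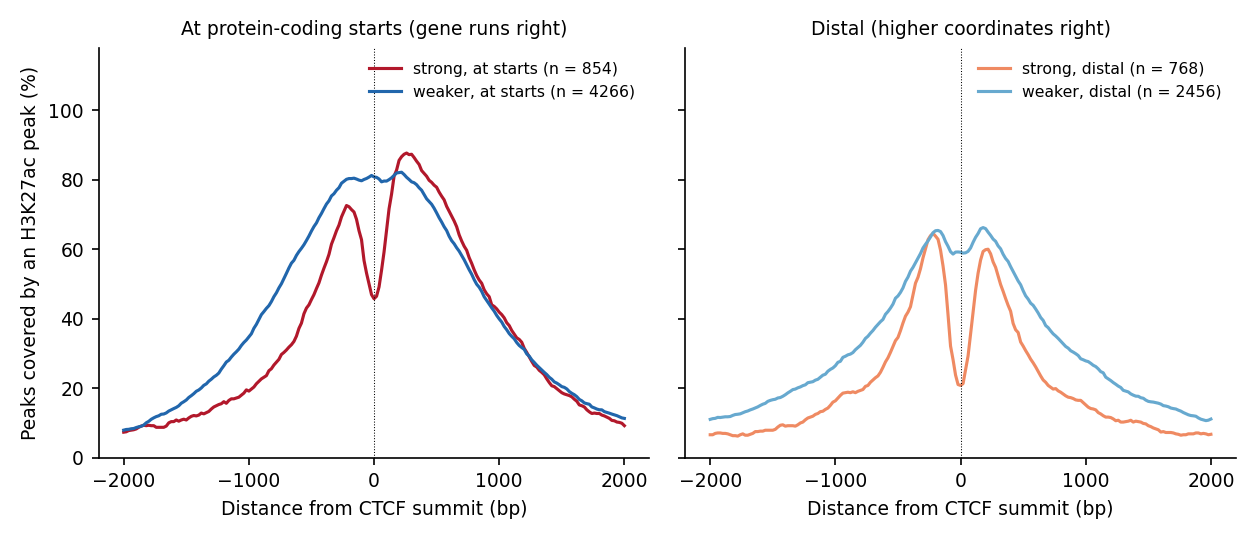
The share of CTCF peaks covered by an H3K27ac peak (y axis, %) is plotted against the distance from the CTCF summit (x axis, bp) for strong and weaker CTCF peaks with H3K27ac at protein-coding starts (left, gene running to the right) and at distal positions (right). Strong sites have a dip at the summit, to 45.8% at starts and 20.8% at distal positions, where the weaker peaks stand at 80.8% and 59.2%.

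Coverage by H3K27ac peaks was followed along the DNA around the summit. Each site had to touch an H3K27ac peak within its own interval, so part of the coverage beside the summit follows from the rule. Strong and weaker peaks were not matched for CTCF or H3K27ac peak width in these profiles. At the 854 sites within 1 kb of a protein-coding start, coverage was highest 260 bp downstream of the summit, at 87.7%, fell to 45.8% at the summit and was 72.6% at 220 bp upstream. At the 768 distal sites, more than 5 kb from any listed start or protein-coding gene end, it was 64.6% at 220 bp on the lower-coordinate side, 20.8% at the summit and 60.0% at 220 bp on the other side. Profiles at starts follow the gene's direction and distal profiles follow the chromosome, which would average out one-sidedness at distal sites, so the 2 were not compared in this respect. At starts, coverage was higher on the downstream side. The strongest H3K27ac summit lay downstream of the CTCF summit at 68.6% of the sites at starts (95% Wilson interval 65.4 to 71.6%) and at 47.3% of the weaker CTCF peaks at starts (45.8 to 48.8%). These 2 groups lie differently around the start, with 78.0% and 45.7% of CTCF summits upstream of it. The shares were not matched for that position, and its part in the difference was not tested.

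Sites at starts also had more acetylation than distal ones. The median fold enrichment was 15.5 at starts (95% interval of the median 14.4 to 16.7) and 5.10 at distal sites (4.87 to 5.42), and the widest overlapped H3K27ac peak had a median width of 910 and 382.5 bp. An H3K27ac q-value above 0.05 was attached to 0.468% of the sites at starts and to 5.08% of the distal sites. Their median CTCF signal values, which the choice of sites limits to 200 and above, were 268.7 and 260. Some sites outside starts touched very long acetylated domains. The longest, 10965 bp, overlapped MSI1, which encodes an RNA-binding protein of neural progenitors, followed by 9449 bp at MIR9-2HG, a host transcript of a neural microRNA, and 7306 bp near SPRY2, an inhibitor of receptor tyrosine kinase signalling. The CTCF summit lay inside the domain at MSI1 and SPRY2 and just outside its edge at MIR9-2HG. The SPRY2 domain includes the listed SPRY2 start, 1903 bp from the CTCF summit. At MSI1 the summit was 1837 bp from an end of a protein-coding gene, and the nearest listed start, that of SIRT4, was 65.0 kb away. These domains are therefore not all away from promoters.

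Position relative to genes was not itself used to choose the sites. The rule required H3K27ac, which lies on active promoters, so the contrast with strong peaks without H3K27ac is not independent of that choice. A protein-coding transcription start lay within 1 kb of the CTCF summit at 854 of 2446 sites on the 22 chromosomes with listed starts, or 34.9% (95% Wilson interval 33.1 to 36.8%). The share was 2.53% of the strong CTCF peaks without H3K27ac (2.16 to 2.95%), 46.5% of the weaker CTCF peaks with H3K27ac (45.4 to 47.5%) and 14.7% of all CTCF peaks. The strong sites with H3K27ac thus exceeded strong peaks without it by 32.4 percentage points (95% interval 30.5 to 34.3), on 22 of 22 chromosomes. They differed from weaker peaks with H3K27ac by -11.5 percentage points (-13.7 to -9.38), and the share was lower on 21 of 22 chromosomes, with the X chromosome, which has 18 sites, as the exception. Starts of long noncoding RNAs lay within 1 kb of 10.5% of the sites (257). Of these 257, 133 also had a protein-coding start within 1 kb, so the 2 kinds of start overlap. The share was 2.92% of strong peaks without H3K27ac, 12.4% of weaker peaks with it and 5.02% of all CTCF peaks. The summit fell inside a protein-coding gene at 44.65% of the sites, at 45.7% of the strong peaks without H3K27ac and at 63.6% of the weaker peaks with it.

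At starts, the strong sites sat just upstream. The CTCF summit was upstream of the nearest start at 666 of 854 sites, or 78.0% (95% Wilson interval 75.1 to 80.6%), with a median position of -94 bp. In 49.3% it was 1 to 200 bp upstream, and in 7.73% it was 0 to 200 bp downstream. The weaker CTCF peaks with H3K27ac straddled the start, with 45.7% upstream (44.2 to 47.2%) and a median of 25 bp downstream. For the 154 strong CTCF peaks without H3K27ac at starts, 79.2% were upstream (72.1 to 84.9%), at a median of -138.5 bp, so strong CTCF peaks lay mostly upstream with and without H3K27ac. Listed starts on both strands occurred within 1 kb of 22.4% of the strong sites at starts, of 25.7% of the weaker peaks and of 7.79% of the strong peaks without H3K27ac.

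**Figure D3:**
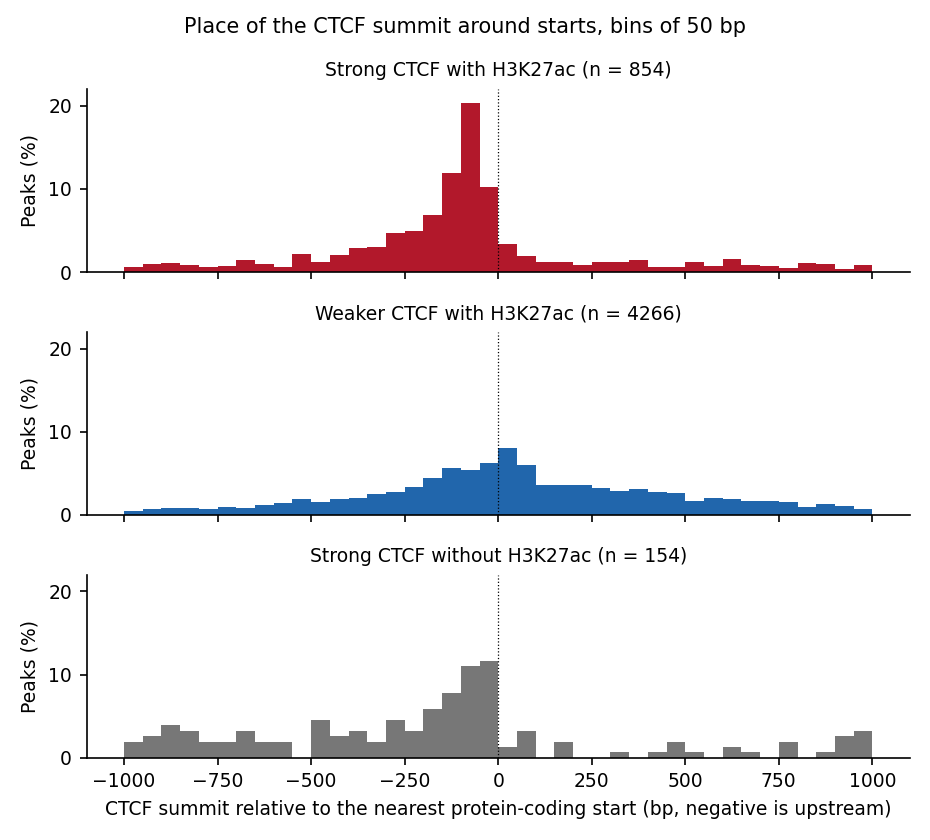
The share of CTCF summits (y axis, %) is shown in bins of 50 bp by distance from the nearest protein-coding start (x axis, bp, negative values upstream) for strong CTCF peaks with H3K27ac, weaker CTCF peaks with H3K27ac and strong CTCF peaks without H3K27ac. The highest bin of the strong sites with H3K27ac lies 50 to 100 bp upstream and holds 20.3% of them.

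The CTCF core consensus was then looked for on both strands in the 300 bases around protein-coding starts, from 250 before to 50 after. It has 14 positions, and a match was 12 or more of them. Of the 501 strong sites whose summit fell in such a window (499 genes), 66.3% had a match (95% Wilson interval 62.0 to 70.3%), as did 19.4% of all 22132 listed windows. The share was 85.7% for the 63 windows with a strong CTCF peak without H3K27ac (75.03 to 92.3%), 33.9% for the 1465 with a weaker CTCF peak with H3K27ac (31.6 to 36.4%) and 17.2% for the 8982 with H3K27ac and no CTCF peak. The 276 windows with a weaker CTCF peak without H3K27ac had 59.8% (53.9 to 65.4%), an interval that overlaps that of the strong sites. With 13 or more matching positions the shares were 28.1%, 3.05%, 49.2%, 7.10%, 1.38% and 28.6% in the same order. The median distance from the centre of the match to the CTCF summit was 7.5 bp at the strong sites (quartiles 3.5 and 18.5) and 18.5 bp at the weaker peaks with H3K27ac. ATP5MC2, whose signal value is among the highest, had 11 matching positions at best in this window, which says only that no closer match is in these letters.

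The matched cores at the strong sites with H3K27ac had a preferred direction. As in LRRC59, TMEM170A and STAG1 above, the consensus read along the gene's own strand at 230 of 314 sites, or 73.25% (95% Wilson interval 68.1 to 77.8%), leaving out 18 that matched equally well on both strands. The share was 55.8% at the weaker CTCF peaks with H3K27ac, 51.7% in windows with H3K27ac and no CTCF peak, and 55.8% over all listed windows with a match. The difference from the weaker peaks was 17.5 percentage points (95% interval 10.7 to 24.0). Strong CTCF peaks without H3K27ac had 51.0% with the gene, on 51 cores, and the difference of 22.3 points has an interval of 8.13 to 36.3. The 159 cores of weaker CTCF peaks without H3K27ac had 64.8% with the gene (57.1 to 71.8%), an interval that overlaps that of the strong sites.

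**Figure D4:**
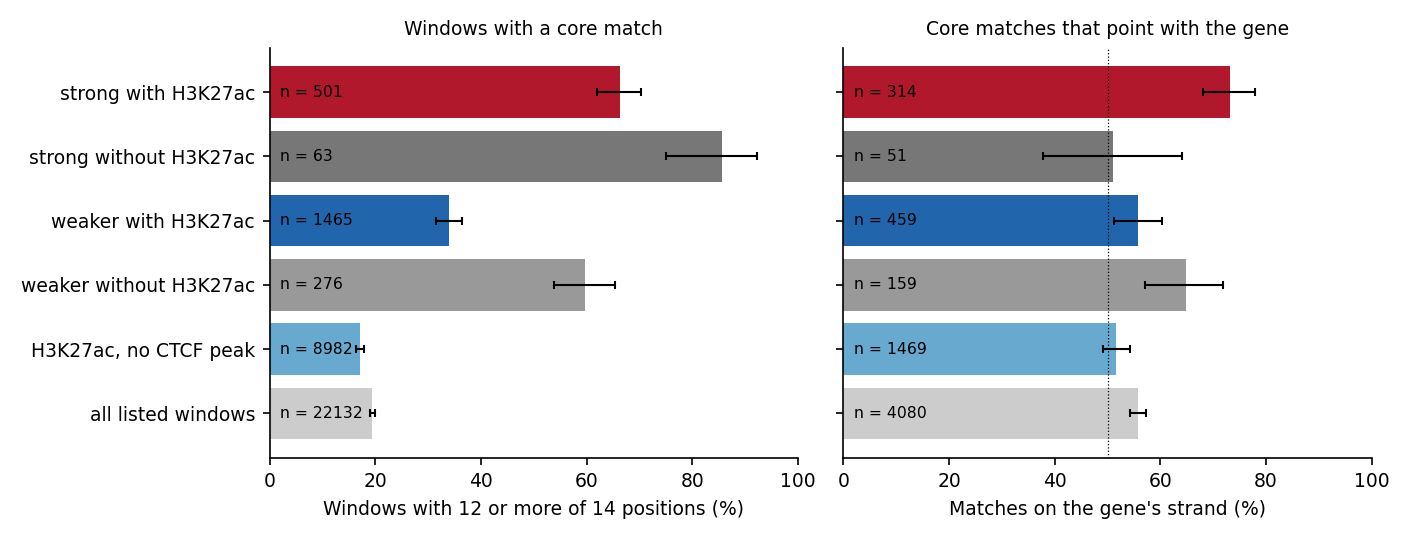
Left, the share of promoter windows with 12 or more of 14 positions of the CTCF core (x axis, %). Right, the share of matched cores that read along the gene's strand (x axis, %, dotted line at 50), for strong CTCF peaks with H3K27ac, strong without, weaker with, weaker without, windows with H3K27ac and no CTCF peak, and all listed windows. Bars are shares and lines are 95% Wilson intervals; the strong sites with H3K27ac reach 73.25% on the right, and strong peaks without H3K27ac 51.0%.

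Where the core lay within 50 bp of the summit, sites of the 2 directions could be set side by side. The 202 cores that read with the gene had a median CTCF signal value of 288.6, and the 74 that read against it, among them NOP10, NAE1 and FRS3, had 262.3, given as a description because this value chose the sites. Their median H3K27ac fold enrichments of 15.8 (13.7 to 17.7) and 14.1 (11.95 to 17.5) had overlapping intervals. The centre of the core lay at a median of -95.5 bp from the start (-104.5 to -89.5) and -99 bp (-118.5 to -78.5). The H3K27ac summit lay downstream of the CTCF summit at 82.2% of the cores with the gene (76.3 to 86.8%) and 70.3% of those against it (59.1 to 79.5%). The interval of this difference was not computed, and overlap of the 2 separate intervals does not show that the shares are alike. Where starts were listed on 1 strand only, 74.8% of the cores read with the gene, and where they were listed on both strands 67.7% of 62 did. The windows of the strong sites were GC-rich, with a median of 67% GC and 28 CpG dinucleotides, and all listed windows had 62.3% and 21. The same held for windows of weaker CTCF peaks with H3K27ac (67.7% and 29) and without it (68% and 26) and for windows with H3K27ac and no CTCF peak (65% and 26). The 63 windows of strong CTCF peaks without H3K27ac had 64.7% and 22, a CpG number near that of all listed windows.

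Sites were next assigned to genes. A strong site with H3K27ac overlapped or lay within 1 kb of 1988 of 19974 protein-coding genes, or 9.95%, and lay within 1 kb of a listed start of 919 of the 15812 genes that have one, or 5.81%. Genes with a site were longer than genes at large, with medians of 35.3 and 24.2 kb, so the median length of each list is given with its count. The most sites in 1 gene was 4, in GSE1, SPECC1, DIAPH1, a formin gene, and DLGAP1, a scaffold gene of the postsynaptic density. The DLGAP1 sites differed widely in acetylation, with H3K27ac fold enrichments of 36.1, 17.8, 10.3 and 8.75.

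Overlap with an H3K27ac peak was counted for each marker list. All 15 neuron genes and all 11 neural progenitor genes overlapped one, as did 69% of all protein-coding genes and 7 of 8 astrocyte genes. So did 4 of 8 oligodendrocyte genes, 2 of the 7 pluripotency genes found and 3 of 12 liver and muscle genes. These counts do not tell neurons from progenitors or astrocytes, and gene length differs between the lists. Strong CTCF sites with H3K27ac were found at 5 of the 15 neuron genes (median length 97.97 kb), beside 9.95% of all genes. At listed starts the count was 0 of 8, beside 5.81% of all genes, but MAPT, NEFL and NEFM have no listed start here and could not be counted. The listed start of MAP2 nearest to its site of signal value 262.1 was 155.5 kb away, so an unlisted MAP2 start nearer to that site would have been missed. The summits nearest to an end of a protein-coding gene lay 76 bp away at NEFL, 152 bp at MAPT and 176 bp at MAP2. MAP2, a microtubule-associated protein gene, had 2 sites (signal values 262.1 and 216.2) that both touched an H3K27ac peak with a fold enrichment of 13.99, and the first of them overlapped 2 H3K27ac peaks with its summit outside both. The neurofilament genes NEFL and NEFM had sites of 271.5 and 208.7, and GAP43, a growth cone protein gene, had one of 252.6 inside the gene. The progenitor list had sites at NES (237.9, 813 bp upstream of the start), an intermediate filament gene, and at MSI1 (291.0 and 215.5), 2 of 11 genes (median length 8.65 kb). LIN28A was the single pluripotency gene with a site, of 7 (median length 9.75 kb), and its H3K27ac fold enrichment was 4.83. Astrocyte and oligodendrocyte genes had 0 of 8 each (median lengths 13.9 and 13.8 kb), and liver and muscle genes 0 of 12 (18.2 kb).

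Among 12 genes of CTCF and the cohesin machinery (median length 81.6 kb), 4 had a strong site with H3K27ac, beside 9.95% of all genes. All 4 had one at a listed start, of 11 genes with such a start, beside 5.81% of all genes. STAG1 and STAG2 encode alternative subunits of cohesin, and their sites lay 30 and 60 bp upstream of the start with signal values of 367.2 and 241.8. PDS5A and PDS5B encode regulators that bind cohesin, and their sites lay 84 and 77 bp upstream, with 276.7 and 275.7. The H3K27ac fold enrichments were 38.4 at STAG1, 25.7 at STAG2, 22.5 at PDS5A and 41.1 at PDS5B, all above the median of 15.5 of sites at starts. PDS5A had a further site 1320 bp downstream of the start, with a signal value of 233.6. CTCF itself, RAD21, SMC1A, SMC3, NIPBL, MAU2, WAPL and CTCFL had none.

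The axon guidance list had sites at 8 of 17 genes (9.95% of all genes) and at 4 of 13 listed starts (5.81% of all genes), and its genes were long, with a median of 210.7 kb. The receptors DCC, PLXNA1 and EPHA4 and the ligand EFNB2 had their site at a start. DCC, the netrin receptor, had a signal value of 239.6 and an H3K27ac peak of 3085 bp with a fold enrichment of 13.15. At EPHA4 the site was 503 bp downstream of the start (signal value 321.5, fold enrichment 18.8), and at EFNB2 it was 953 bp upstream (316.4 and 15.8). PLXNA1 had 237.1 and 5.12. EFNB1 had a site 1049 bp upstream of its start, with 201.05 and 8.68. In SLIT1 and SLIT3, which encode repellent ligands, the sites lay far inside the gene and their H3K27ac fold enrichments were low, 2.24 and 2.85, with −log10 q of 0.974 and 1.15 that correspond to q-values above 0.05. The part of gene length in this list's count was not tested.

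Of 15 genes of synaptic vesicles and release (median length 41.2 kb), RIMS1, a scaffold of the active zone, had a site 373 bp downstream of its start (signal value 266.6, fold enrichment 11.5), and UNC13A, a vesicle priming factor, had one inside the gene (236.9 and 5.86). The 16 neural patterning factors, short genes with a median of 7.20 kb, had 0, although 14 of them overlapped an H3K27ac peak. Of 16 neurodegeneration genes (median length 22.7 kb), PINK1, a mitochondrial kinase gene, had a site of 352.9, and GRN, which encodes progranulin, had one of 259.4, 615 bp downstream of its start. The shares of these 3 lists, 13.3%, 0% and 12.5%, stand beside 9.95% of all genes.

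Near MAPT, 8 of the 25 strong CTCF peaks within 1 Mb were sites with H3K27ac, beside 28.7% of all strong CTCF peaks, so the count does not set this region apart. The site at MAPT itself ran from 45894149 to 45894661 on chromosome 17, with its summit 152 bp from the nearer of the 2 ends of a protein-coding gene, a signal value of 245.5 and 2 overlapped H3K27ac peaks. Its summit lay outside both. MAPT has no listed start here, so the distance to its start was not measured. The highest CTCF signal value of the 8 was that of the ACBD4 core shown above, 421.9, beside an H3K27ac peak of 4.40-fold enrichment. A second ACBD4 site (226.9) and a HEXIM1 site (258.2) had their summits inside H3K27ac peaks of 15.9-fold and 33.7-fold enrichment, and HEXIM1 encodes an inhibitor of transcription elongation. FMNL1, a formin gene, had a site of 260.7 in the gene, and another of 273.4 lay between HEXIM2 and FMNL1. At GOSR2 and LRRC37A2 there were 2 sites of 324.7 and 278.3 with fold enrichments of 5.83 and 3.34.

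Spacing along the chromosomes was examined last. The nearest other strong CTCF summit was at a median of 47.35 kb (95% interval of the median 44.1 to 50.6 kb), and for strong peaks without H3K27ac it was at 50.8 kb (48.2 to 53.5 kb), and these intervals overlap. Neighbouring sites lay within 10 kb in 104 pairs and within 1 kb in 17. The nearest pair, upstream of TREH on chromosome 11, had summits 340 bp apart with signal values of 230.7 and 242.5, and both touched the same H3K27ac peak of 250 bp. Of the 78639 H3K27ac peaks, 3195 (4.06%) were overlapped by a strong site, and 25 of them by 2.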

How the data were processed

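ChIP-seq peaks for CTCF and H3K27ac were analysed from 1 deposited list per antibody, each covering both libraries. The build hg38 and cutadapt 1.16 come from the submitters' processing notes. The aligner, the peak caller and the treatment of duplicates are not given in the sources used here. Per the labels, the CTCF list's name mentions IDR, which keeps peaks ranked alike in both replicates, so weak peaks seen in 1 library would be missing. The CTCF list's deposited signal value is the authors', on a scale not stated. The H3K27ac list's deposited value was read as a fold enrichment, a ratio to control, from its layout, and the deposited −log10 q was used for q-values alone. Values were not compared between lists. Read counts were not used here, so depth is unknown and no count test was run.

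The members, lists and comparisons were chosen with earlier results of these data known. Overlap meant at least 1 bp; of 43644 CTCF entries on 23 chromosomes, 214 repeated an interval. Where a site met several H3K27ac peaks, the one of highest fold enrichment gave its values. Gene intervals, starts and sequences came from RefSeq tables of GRCh38.p14, the build of hg38. Starts were listed for 15812 of 19974 protein-coding genes, so shares at starts are lower bounds, and 105 sites lie on the chromosome without listed starts and enter no start analysis. Cores were searched by their best match to the CTCF core consensus on both strands. Shares have 95% Wilson intervals, differences have Newcombe intervals and medians have order-statistic intervals. Named sites were those with the 10 highest CTCF signal values, the 5 highest H3K27ac fold enrichments, the most or longest H3K27ac peaks, the nearest pair, those near MAPT, those at the limit of 200, and those within 1 kb of a listed gene; genes with the most sites and the genes of printed sequences were added. The PPRC1, EFHD1 and ATP5MC2 sites were named for the most H3K27ac peaks, ATP5MC2 being 1 of the 665 with 2. Counting was tested on simulated peaks. Python 3.11.15, numpy 2.4.6, pandas 2.3.3, scipy 1.17.1 and matplotlib 3.10.9 were used.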

Additional observations from a re-analysis of the deposited data

How the results depend on the processing

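No paired analysis was possible because each list covers both replicates together, and leaving out a replicate was not possible for the same reason. Of the 30 alternatives run, 17 moved a value beyond its interval (or a number by over 1.5 times) and 13 did not; the cause was not tested unless the alternative's own construction shows it. The number of sites, 2551, was 1554 with a signal minimum of 250, 838 with the CTCF summit inside H3K27ac and 1270 with 50% of the interval covered, each a stricter rule. The median summit distance of 240 bp was 214 bp to the nearest H3K27ac summit, and the median fold enrichment of 8.35 was 6.62 at the overlapped peak with the nearest summit. The median width of 491 bp was 483 bp and 499 bp with minimums of 150 and 250. The share at starts, 34.9%, was 28.5% within 500 bp, 46.4% within 5 kb, 48.6% for sites with the summit inside H3K27ac and, in an alternative added after seeing the data, 40.7% at either end of a protein-coding gene. The share with a core match, 66.3%, was 96.8% with 11 positions, 28.1% with 13 and 57.9% with the core within 50 bp of the summit. In alternatives also added after seeing the data, the share of cores with the gene, 73.25%, was 78.0% with 13 positions, and the share of summits inside H3K27ac, 32.85%, was 30.8% with a minimum of 250 and 30.9% at middle width. Depth could not be recovered, so what weaker sites or thinner acetylation the lists miss is unknown, and intervals from 63 or fewer windows are wide.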
